A study of Mus musculus with 18 samples.

Results

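The genes described here are 32 mouse genes whose proteins store, dock, prime and release synaptic vesicles, or fill them with glutamate. They are listed by gene name, without a threshold on any measured value, in a list drawn up with earlier results of these data known. All 32 were found among the 22063 genes of the count table and passed the filter on low counts. By role they are 3 synapsins, 6 other vesicle membrane proteins, 5 synaptotagmins, 4 SNARE proteins, 3 complexins, 3 Rab3 GTPases, 6 active zone proteins and 2 vesicular glutamate transporters. RNA of 18 mouse hippocampus samples was sequenced after selection of polyadenylated RNA, in a series that asked what rotation disturbing the sense of orientation does to hippocampal transcripts. The Control group (n = 3) is labelled as blank control. The 3 rotated groups have 5 samples each. Rotation went 1 way under blocked vision for S-V. It went both ways with free vision for D+V, and both ways under blocked vision for D-V, which the labels name the Coriolis illusion. Hippocampus was taken at once after rotation, per the design text of the series. The sources used here do not state strain, sex, age, length of rotation or whether the samples come from separate animals. The p-values therefore measure only how far these samples spread, which may be technical. Each library held 15.03 to 25.31 M estimated counts. Levels are given in CPM, the count scaled to a common library total after TMM correction for composition.

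Release of transmitter depends on a chain of protein contacts. Synapsins hold vesicles in a reserve pool, Rab3 GTPases on the vesicle bind RIM proteins at the active zone, and Munc13 proteins (Unc13 genes) open syntaxin so that the SNARE proteins on vesicle and plasma membrane can zip together. Complexins hold the partly zipped complex, and synaptotagmins trigger fusion when calcium enters. In the hippocampus most of these genes are transcribed in pyramidal and granule neurons, whose glutamatergic terminals carry VGLUT1, the product of Slc17a7. In bulk tissue, fewer cells of a type and less RNA per cell cannot be told apart.

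The Rab3 family shows a feature along which many of the values below were ordered, the G and C content of the transcript. Values in D+V also ranked with transcript length, in which the 3 genes differ as well. The 3 proteins are close relatives, yet the genes write them with different codons. The lines below give the same stretch of 120 coding bases from each gene, which encodes the end of the nucleotide-binding loop and the first switch region, with G and C in capitals. The stretch holds coding bases 91 to 210 of Rab3a and Rab3b and 115 to 234 of Rab3c, taken from GENCODE vM21 transcripts.
Rab3a: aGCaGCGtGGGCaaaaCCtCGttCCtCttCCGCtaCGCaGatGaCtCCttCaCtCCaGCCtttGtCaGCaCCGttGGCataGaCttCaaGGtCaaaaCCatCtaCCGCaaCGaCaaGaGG
Rab3b: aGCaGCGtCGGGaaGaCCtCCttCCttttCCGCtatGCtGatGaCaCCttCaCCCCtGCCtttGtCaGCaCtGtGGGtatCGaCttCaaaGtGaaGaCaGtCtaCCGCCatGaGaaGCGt
Rab3c: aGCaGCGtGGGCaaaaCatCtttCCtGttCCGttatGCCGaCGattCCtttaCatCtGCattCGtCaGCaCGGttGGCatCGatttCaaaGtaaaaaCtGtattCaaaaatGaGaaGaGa
In this stretch 53.3% of bases were G or C in Rab3a and in Rab3b, and 42.5% in Rab3c. Over the whole coding sequences the contrast was smaller, at 54.7% in Rab3a, 53.9% in Rab3b and 48.3% in Rab3c. Rab3a and Rab3c differed at 29 of the 120 bases, 24 of them at the third base of a codon, where 77.5% of Rab3a bases and 50% of Rab3c bases were G or C. Over the whole coding sequences that codon position was G or C in 72.7% of Rab3a codons and 59.5% of Rab3c codons. Over 657 aligned coding bases Rab3a and Rab3c were 76.3% identical. The whole transcripts differed more: Rab3a was 1556 bases long with 55.0% G and C, Rab3b 3327 bases with 49.3%, and Rab3c 8444 bases with 41.9%.

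The labelled tissue matched its markers. All 7 CA1 pyramidal, 8 CA3 pyramidal and 10 dentate granule markers were detected and tested, at summed levels of 628 to 848 CPM, 815 to 1099 CPM and 571 to 928 CPM over the 18 libraries. Neighbouring tissue varied more. Choroid plexus markers, 12 of 12 tested, summed to 246 to 1532 CPM in Control and 330.2 to 5707 for S-V. They summed to 252 to 12337 for D+V and 272 to 14148 for D-V. In 6 libraries the mean log2 CPM of the list was above the median of the 18 by more than 1. These were S-V 2 and 4, D+V 2 and 5, and D-V 3 and 4. Of them D+V 5 was nearest the cut, at 1781 CPM, while Control 2, at 1532 CPM, was below it. The others of the 6 summed to 5313 CPM or more. Fits without the 6 keep every control, and D+V 1, 3 and 4 of D+V. Thalamus and habenula markers, 14 of 15 tested, summed to 170.0 to 258 CPM in Control, 148 to 203 for S-V, 148 to 212 for D+V and 145 to 178 for D-V, with 12, 12 and 14 of the 14 lower than Control in S-V, D+V and D-V. Gbx2 of this list and Aqp1 of the choroid plexus list were at 0 in the lowest library. Pan-neuronal markers summed to 4788 to 4808 CPM in Control, 4602 to 4783 for S-V, 4578 to 5373 for D+V and 4575 to 5187 for D-V. Other lists also differed in D+V against Control, and some in the other rotated groups as well. Red blood cell markers were positive for 6 of 6 genes (median log2 fold change 1.51, 5 at an unadjusted p under 0.05, 0 called), with summed levels of 479 to 640.3 CPM in Control and 386 to 3208 in D+V. Endothelial and pericyte markers were negative for 8 of 10 (median −0.39, 2 called lower by edgeR), at 361 to 421 CPM in Control and 287 to 374 in D+V. Of the CA3 markers 2 of 8 were called higher (smallest adjusted p = 0.00974), and of the astrocyte markers 1 of 10 (adjusted p = 0.0411). The 6 red blood cell markers were all positive in D-V against Control too (median 1.17, 5 at an unadjusted p under 0.05, 0 called). All 6 were also positive for S-V (median 0.49, 0 called). Of 10 striatum markers, 8 were negative for S-V against Control (median −0.27, 0 called). For D+V 8 of them were negative (median −0.32), while D-V had 7 (median −0.088), with 0 called. Beyond the fits given beside a result, the part of these tissues in the values below was not tested.

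As a share of all counts, the 32 genes made up 1.59% ± 0.038 of the Control libraries (SD, n = 3) and 1.55% ± 0.036 of S-V (SD, n = 5). D+V stood at 1.59% ± 0.14 and D-V at 1.64% ± 0.11 (SD, n = 5 for each), so the group means lay within the spread of the rotated libraries. The 2 lowest shares, 1.37% in D+V 2 and 1.46% in D-V 3, were in the 2 libraries with the most choroid plexus RNA. The share had a median of 1.52% (1.37 to 1.66) in the 6 libraries rich in those markers and 1.61% (1.54 to 1.74) in the other 12. Within D+V, library 2 was the lowest of the 5 for 20 of the 32 genes, and within D-V, library 3 was the lowest for 21.

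**Figure D1:**
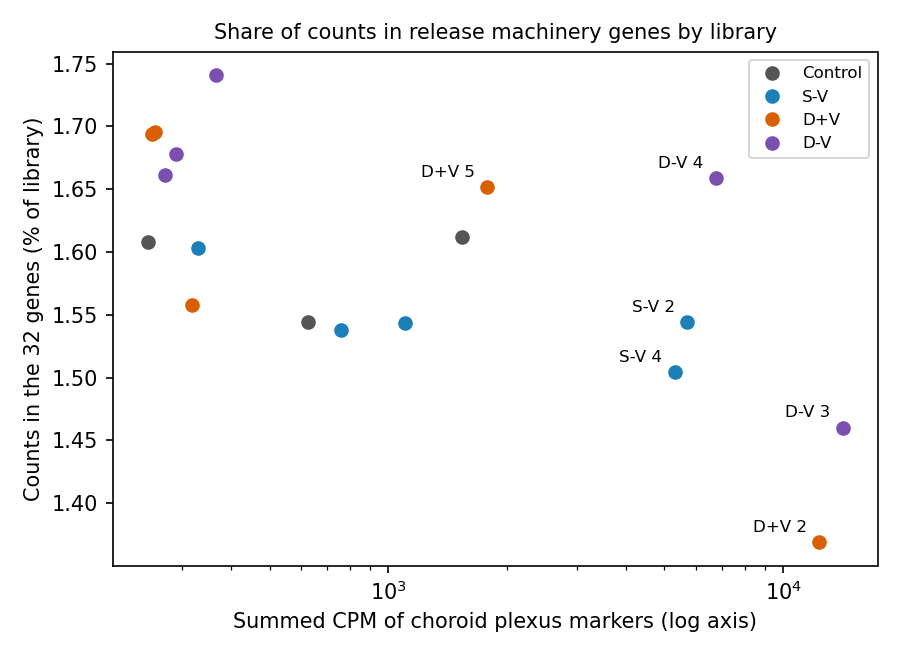
Share of each library's counts in the 32 release machinery genes (vertical axis, percent) against the summed CPM of 12 choroid plexus markers (horizontal axis, log scale), with a point for each library coloured by group. The 6 libraries rich in choroid plexus markers are named, and D+V 2 (1.37%) and D-V 3 (1.46%) lie lowest.

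Levels between genes were compared per kilobase of transcript, with the longest protein-coding transcript annotated for each gene. Snap25, a SNARE protein of the plasma membrane, was highest at a mean of 748 CPM per kilobase over the 18 libraries, followed by Syp (synaptophysin) at 563, Vamp2 (the main vesicle SNARE) at 513, Slc17a7 at 472 and Rab3a at 379. Cplx2 at 314, Syt1 at 307, Cplx1 at 244, Syn1 at 232 and Syn2 at 222 came next. The ranges of these neighbours overlapped. All 18 values of Syn2 lay above all 18 of Syt11, which stood at 141.

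A middle band ran from Syngr1 (104 CPM per kilobase), Sv2a (91.9), Sv2b (90.2) and Syngr3 (80.7) through Synpr (50.6), Syt7 (43.2), Rab3c (38.9), Vamp1 (38.3), Stx1a (37.6), Syt4 (35.6), Bsn (28.9), Unc13a (27.1), Rims1 (22.0) and Rab3b (16.6) to Pclo (12.2) and Rims2 (11.9). The lowest value of Syt11 lay above the highest of Syngr1, and the lowest of Rims2 above the highest of Syt2. Within the band no gene was separated from its neighbour. Syt2 was at 4.41, and the 4 lowest genes were Unc13b at 1.97, Cplx3 at 1.54, Syn3 at 1.34 and Slc17a8 at 0.999. The place of Unc13b rests on a transcript length of 14754 bases. Its mean was 29.1 CPM, where Cplx3, Syn3 and Slc17a8 had 4.41, 5.37 and 4.45 CPM. The gap between members of a family varied widely. Within a library Slc17a7 had 188 to 670.2 times the CPM of Slc17a8, while Rims1 had 2.09 to 2.88 times that of Rims2. Rab3a had 1.03 to 2.40 times the CPM of Rab3c.

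**Figure D2:**
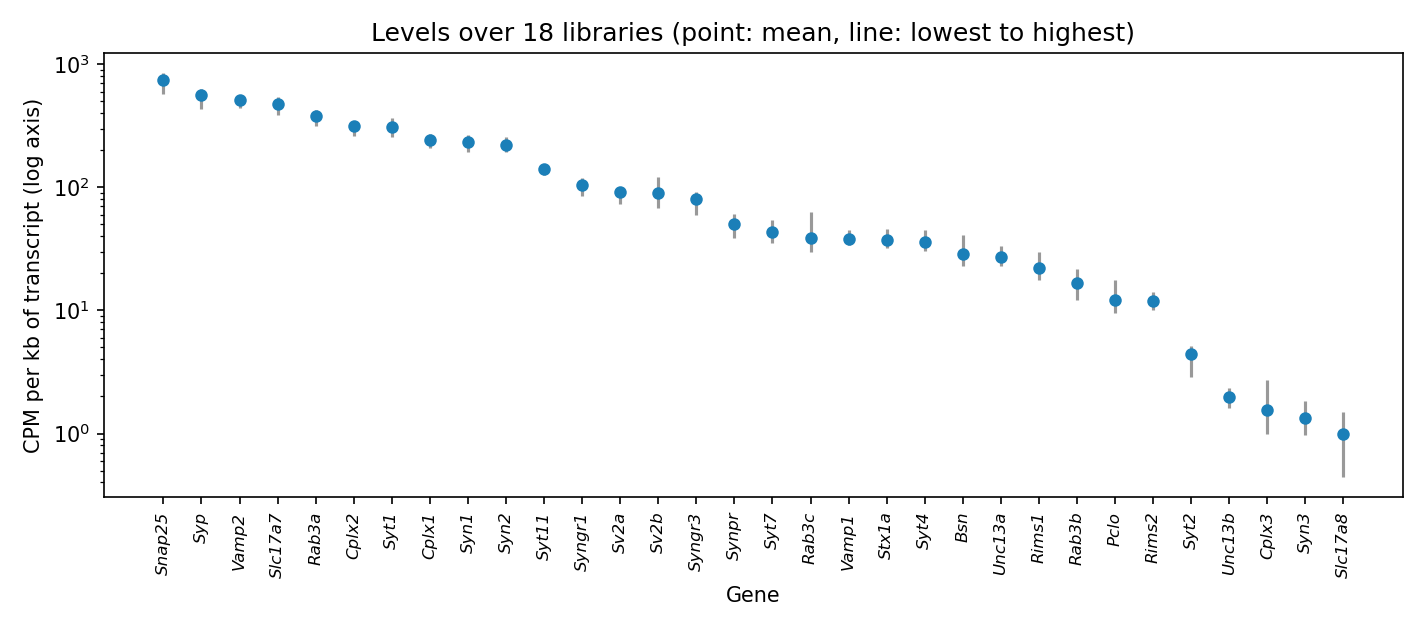
CPM per kilobase of transcript for each of the 32 genes (vertical axis, log scale), ordered by the mean over 18 libraries (points), with lines from the lowest to the highest library. Snap25 (748) is highest and Slc17a8 (0.999) lowest, and breaks follow Syn2, Syt11, Rims2 and Syt2.

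At the threshold of an adjusted p under 0.05, edgeR called 0 of the 32 genes in each of the 7 comparisons made. In S-V against Control 0% of the 14763 genes tested were called, in D+V against Control 0.942% (139 genes), and 0% in the other 5. The smallest adjusted p of a member was 0.365 for S-V, 0.0889 for D+V and 0.805 for D-V, each against Control, 0.28 for the 3 rotated groups averaged against Control, 0.75 for D-V against S-V, 0.239 for D-V against D+V and 0.237 for D+V against S-V. DESeq2 called 1 member in D+V against Control (Syt4), where it called 5.14% of all genes tested, and 0 elsewhere. Its shares of all genes elsewhere were 1.44% in S-V against Control, 0.0203% in D-V against Control, 1.75% in the rotated mean, 0.0745% in D-V against S-V, 1.88% in D-V against D+V and 1% in D+V against S-V. The limma voom fit with quality weights called 9 members in D+V against Control (7 higher, 2 lower), where it called 12.7% of all genes, 7 higher in D+V against S-V (13.2%) and 2 lower in D-V against D+V (5.55%). It called 0 members in S-V against Control (2.15%), the rotated mean (2.58%), D-V against Control (0%) and D-V against S-V (0%). Its calls in D+V against Control were Sv2b, Syt1, Syt4, Rab3c, Pclo, Rims1 and Rims2 (higher) and Syngr3 and Rab3a (lower). In D+V against S-V they were Syn3, Rab3c, Bsn, Pclo, Rims1, Rims2 and Unc13a, and in D-V against D+V Pclo and Unc13b.

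At an unadjusted p under 0.05 the members numbered 1 of 32 in S-V against Control (13.4% of all genes tested), 8 in D+V against Control (17.6%), 1 in D-V against Control (6.02%) and 3 in the rotated mean against Control (12.9%). Between rotated groups they numbered 3 in D-V against S-V (6.29%), 5 in D-V against D+V (13.6%) and 7 in D+V against S-V (12.8%). In S-V against Control the count was below what that share would give for 32 genes, and in the others within 3 genes of it. By direction, all genes tested were at 7.41% higher and 5.95% lower in S-V against Control (members 1 and 0), 10.8% and 6.86% in D+V (6 and 2), 3.37% and 2.65% in D-V (1 and 0) and 7.44% and 5.44% in the rotated mean (2 and 1). Between rotated groups they were at 3.37% and 2.93% in D-V against S-V (members 3 and 0), 5.03% and 8.54% in D-V against D+V (2 and 3), and 8.13% and 4.69% in D+V against S-V (7 and 0). No member had groups without overlap in D-V against Control (5.12% of all genes), the rotated mean against Control (1.05%), D-V against D+V (1.58%) or D+V against S-V (1.21%). The 3 comparisons with Control share the same 3 control libraries, so their values are not independent of each other.

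The median log2 fold change of the 32 genes was −0.046 in S-V against Control (13 positive), where all genes tested had a median of 0.0023. It was 0.067 in D+V (19 positive, all genes −0.0023) and 0.029 in D-V (21 positive, all genes 0.0050). These medians were small and moved with the fit, with 0 members called in each fit named here. After removal of the GC and length trends the S-V median was 0.019 with 21 positive, the D+V median 0.074 with 20 and the D-V median 0.074 with 25. The S-V median was 0.014 with 17 positive without Control 3, and −0.14 with 8 positive under the thalamus and habenula covariate. That covariate turned the D+V median to −0.083 and the D-V median to −0.14. The score is the mean log2 CPM of the markers relative to their means over all libraries. It was 0.33 to 0.79 in Control, −0.11 to 0.24 in S-V, −0.43 to 0.20 in D+V and −0.47 to −0.13 in D-V. Every control thus lay above every rotated library, and every S-V library above every D-V library. In those comparisons the fit can hardly separate the score from the group. With the 6 choroid-rich libraries left out the D-V median was 0.11, with 26 positive.

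**Figure D3:**
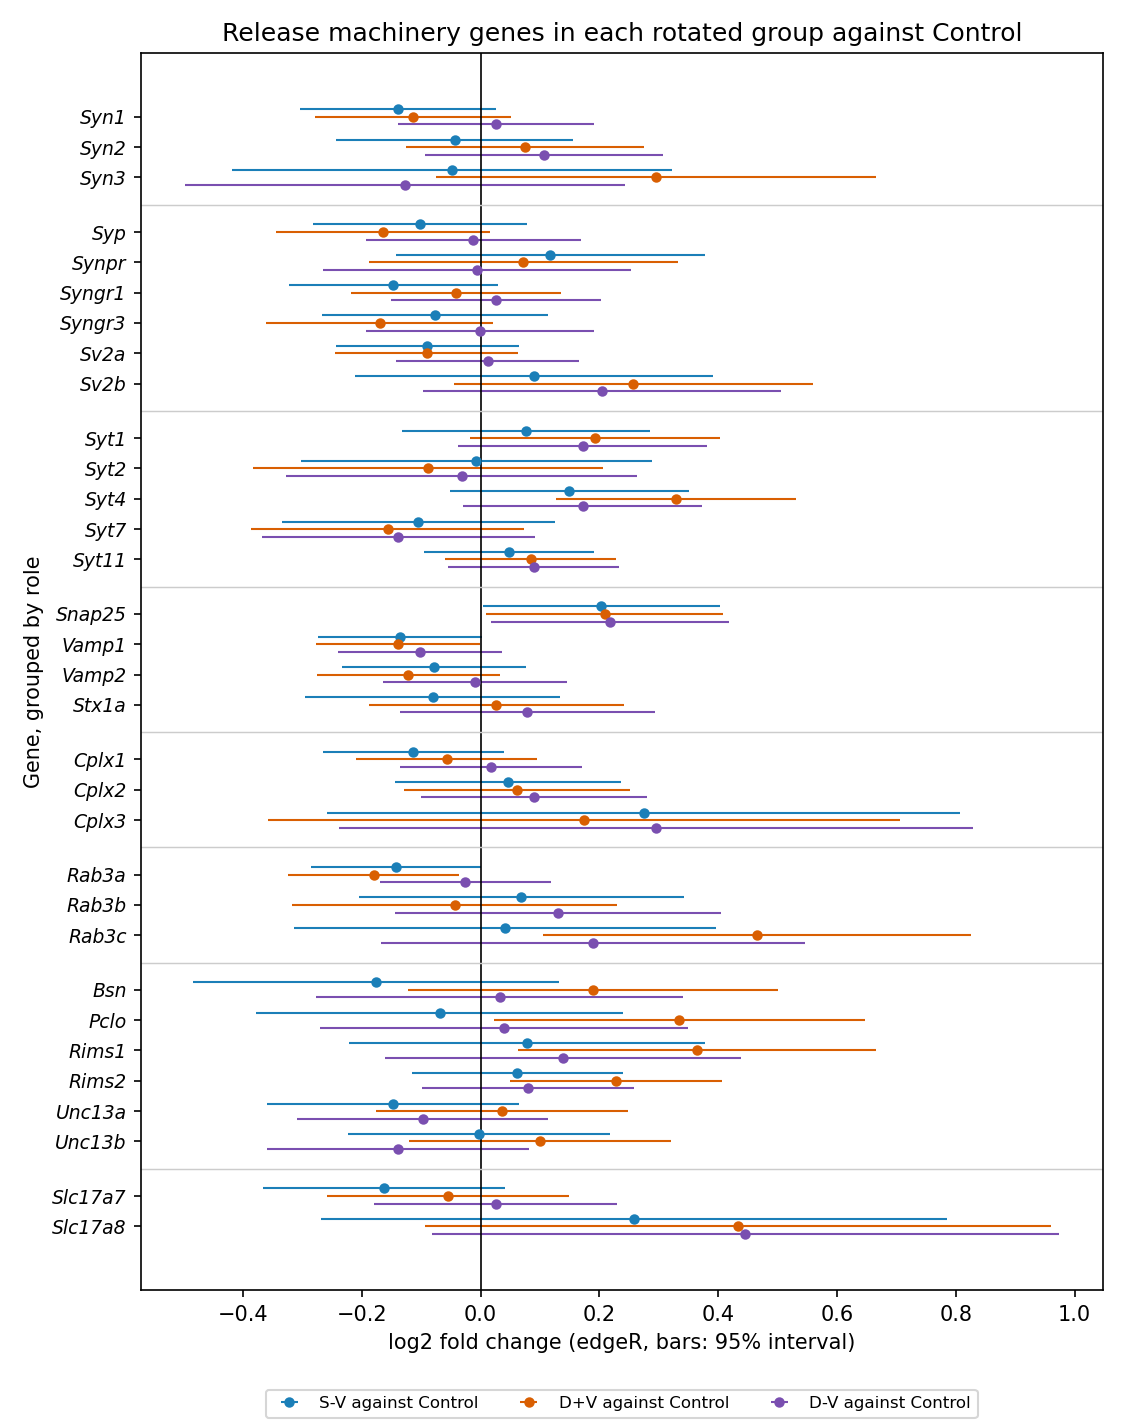
Log2 fold change of each of the 32 genes in S-V, D+V and D-V against Control (horizontal axis, points with 95% intervals from edgeR), grouped by role (vertical axis). Most intervals cross 0, the points of Rab3c and the active zone genes in D+V lie to the right, and Snap25 lies near 0.21 in all 3 comparisons.

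Synapsins coat the vesicle and tether the reserve pool. Syn2, the synapsin with the highest CPM, was at 829, 859.8 and 807 CPM in Control, at 817, 858, 764, 789 and 809 in S-V, at 769, 740.0, 979, 917 and 977 in D+V, and at 932, 984, 746, 939.8 and 881 in D-V. D+V 3, 4 and 5 and D-V 1, 2, 4 and 5 lay above all 3 controls, and S-V 3 and 4, D+V 1 and 2 and D-V 3 below them, so the groups overlapped. Syn1 was at 775, 833 and 756 CPM in Control, at 694, 689.6, 739, 679.6 and 777 in S-V, at 777, 627, 734, 769 and 737 in D+V, and at 778, 853, 705, 861 and 814 in D-V. In D-V against S-V it was at a log2 fold change of 0.16 (SE 0.069, adjusted p = 0.75), with 4 of 5 D-V libraries above all of S-V. That value was 0.076 with the thalamus and habenula covariate and 0.083 after removal of the GC and length trends. Syn1 to Syn2 ratios within a library averaged 0.95 ± 0.019 in Control, 0.89 ± 0.072 for S-V, 0.84 ± 0.11 for D+V and 0.90 ± 0.045 for D-V (SD, n = 3 for Control and 5 for the others).

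Syn3, the least abundant synapsin and a minor form in the adult brain, was at 4.53, 5.46 and 5.64 CPM in Control, at 5.07, 3.92, 5.20, 5.47 and 5.53 in S-V, at 4.19, 7.40, 6.72, 6.98 and 6.67 in D+V, and at 4.85, 4.76, 4.35, 4.01 and 5.90 in D-V. In D+V, 4 of 5 libraries were above every library of the other groups, and D+V 1 was the third lowest of all. It was at −0.42 (SE 0.15, adjusted p = 0.239) in D-V against D+V and at 0.34 (SE 0.15, adjusted p = 0.366) in D+V against S-V. These values were −0.21 and 0.19 with the choroid-rich libraries left out, which keeps D+V 1 beside D+V 3 and 4. They were −0.54 and 0.46 without D+V 1, where both were called (adjusted p = 0.0196 and 0.0367 by edgeR). Removing the trends on GC content and length left the first at −0.41.

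Among the other vesicle membrane proteins, synaptophysin (Syp), the most abundant, was at 1554, 1602 and 1452 CPM in Control, at 1429.8, 1401, 1402, 1385 and 1538 in S-V, at 1517, 1113, 1415, 1478 and 1330.0 in D+V, and at 1478, 1604, 1372, 1643 and 1519.6 in D-V. D+V 2 was the lowest library, and the groups overlapped. Syngr1, a synaptogyrin, was at 459, 443 and 437 CPM in Control, at 384, 410.5, 406, 409 and 408 in S-V, at 399, 354, 498, 445 and 477 in D+V, and at 464, 473, 408, 460.4 and 468 in D-V. All 5 S-V libraries lay below the 3 controls. Syngr1 and Syt4 were the 2 members whose groups did not overlap in S-V against Control, where 12.4% of all genes tested did not. The S-V value of Syngr1 against Control was −0.15 (SE 0.085, adjusted p = 0.466). Against S-V, D-V was at 0.17 (SE 0.074, adjusted p = 0.75), with 4 of 5 D-V libraries above all of S-V, and at 0.094 after removal of the trends and 0.052 with the thalamus and habenula covariate.

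Sv2a, a vesicle glycoprotein and the binding site of levetiracetam, had groups that did not overlap in D-V against S-V (2.05% of all genes tested), with 375 to 394 CPM in S-V and 398 to 428 in D-V. Its log2 fold change was 0.10 (SE 0.064, adjusted p = 0.823), and 0.053 after trend removal. Its relative Sv2b had 374 to 675 CPM in D+V, from the lowest to the highest of the 18 libraries. Syngr3 was at 0.17 (SE 0.080, adjusted p = 0.358) in D-V against D+V, a value that was 0.094 without D+V 2, its lowest library at 116 CPM, and 0.051 after trend removal. Synpr (synaptoporin), a synaptophysin relative enriched in mossy fibre terminals, had 131 to 206 CPM and no unadjusted p under 0.05 in any comparison.

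Synaptotagmins are the calcium sensors of fusion and their relatives. Syt1, the fast sensor of forebrain synapses, was at 1286, 1351 and 1441 CPM in Control, at 1410.4, 1464, 1430.4, 1391 and 1471 in S-V, at 1389.9, 1227, 1749, 1725 and 1678 in D+V, and at 1603, 1706, 1351, 1442 and 1556 in D-V. D+V 3, 4 and 5 were the 3 highest of their group and D+V 2 the lowest of all 18, so D+V spanned the other groups. In all comparisons edgeR gave Syt1 an unadjusted p above 0.05.

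Syt4, a synaptotagmin that lacks usual calcium binding and sits on dense-core and other secretory vesicles, was the member with the smallest adjusted p. It was at 126, 118 and 123 CPM in Control, at 133, 139.6, 127, 139 and 138 in S-V, at 145, 126, 176, 171 and 149 in D+V, and at 153, 156, 128, 122 and 129 in D-V. All 5 S-V and all 5 D+V libraries lay above the 3 controls, and of D-V 4 of 5 did, with D-V 4 among the controls. The gap was narrow, with 126.4 CPM in D+V 2 and 125.8 in Control 1. Groups that do not overlap made up 7.63% of all genes tested in D+V against Control. There the log2 fold change was 0.33 (SE 0.097, adjusted p = 0.0889). It was 0.15 (SE 0.096, adjusted p = 0.519) in S-V and 0.17 (SE 0.097, adjusted p = 0.851) in D-V, and 0.22 (SE 0.084, adjusted p = 0.28) for the rotated mean, with 14 of 15 rotated libraries above all controls.

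The D+V value of Syt4 was called by DESeq2 (adjusted p = 0.0245), in an edgeR fit with a choroid plexus covariate (adjusted p = 0.0335), and by edgeR without D+V 1 (adjusted p = 0.0358) or without D+V 2 (adjusted p = 0.045). Without D+V 2, edgeR called 115 genes in all in that comparison. The number of all genes called with the choroid plexus covariate is not given here. The D+V value of Syt4 was 0.44 with the choroid-rich libraries left out, 0.17 with the thalamus and habenula score as a covariate and 0.15 after removal of the GC and length trends, uncalled in each. Its transcript had 40.7% G and C, the second lowest of the 32. Syt2, Syt7, which serves slower release, and Syt11, which binds no calcium, had no unadjusted p under 0.05 in any comparison, with levels of 19.8 to 35.3, 234 to 359 and 627 to 758 CPM.

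SNARE proteins carry out fusion. Snap25 was at 1210.2, 1513 and 1477 CPM in Control, at 1582, 1605, 1589.9, 1499 and 1784 in S-V, at 1778, 1347, 1648, 1733 and 1586 in D+V, and at 1661, 1791, 1428, 1674 and 1588 in D-V. Control 1 was the lowest of the 18 libraries, and 12 of 15 rotated libraries were above all 3 controls, 4 in each group. The values against Control were 0.20 (SE 0.096, adjusted p = 0.365) for S-V, 0.21 (SE 0.096, adjusted p = 0.263) for D+V and 0.22 (SE 0.096, adjusted p = 0.805) for D-V. The rotated mean was at 0.21 (SE 0.084, adjusted p = 0.298). These rested in part on a single library, since without Control 1 they were 0.11, 0.11, 0.12 and 0.12. With the GC and length trends removed they were 0.057, 0.12, 0.15 and 0.11. Snap25 did not differ between rotated groups beyond its spread, with log2 differences of 0.0059 to 0.015 and 95% intervals that all lay between −0.17 and 0.19.

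Vamp1, a vesicle SNARE most used in brainstem, spinal cord and some interneurons, was at 121, 137 and 114 CPM in Control, at 115, 115, 113, 105 and 117 in S-V, at 111, 102, 118, 114 and 119 in D+V, and at 118, 116, 112, 118 and 114 in D-V. Control 2 was the highest library, and only Control 3 of the controls lay among the rotated libraries. Vamp1 was at −0.14 (SE 0.066, adjusted p = 0.279) in D+V and at −0.13 (SE 0.057, adjusted p = 0.36) for the rotated mean, and at −0.063 and −0.049 without Control 2. After trend removal these were −0.052 and −0.068. It had the smallest within-group spread of the 32 genes, an SD of 0.079 on the log2 scale. Vamp2 (970.0 to 1238 CPM) and the syntaxin Stx1a (68.9 to 99.4 CPM) had no unadjusted p under 0.05.

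Complexins bind the assembled SNARE complex. Cplx2, the most abundant in hippocampus, was at 1279, 1564 and 1623 CPM in Control, at 1618, 1469, 1593, 1312 and 1695 in S-V, at 1512, 1435, 1570.3, 1584 and 1667 in D+V, and at 1610.5, 1699.8, 1399, 1607 and 1611 in D-V. Control 1 was the lowest library, as it was for Snap25, and the groups overlapped. Cplx1 (457 to 593 CPM) and Cplx3 (2.82 to 7.74 CPM), a complexin best known from retinal ribbon synapses, also had no unadjusted p under 0.05 in any comparison.

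Rab3 GTPases mark vesicles ready to dock. Rab3a was at 646, 656 and 589 CPM in Control, at 578, 543, 570.1, 558 and 608 in S-V, at 593, 493, 548, 584 and 565 in D+V, and at 590.3, 655, 581, 652 and 619 in D-V. In D+V 4 of 5 libraries lay below all controls, and D+V 2 was the lowest of the 18. The D+V value against Control was −0.18 (SE 0.069, adjusted p = 0.18), and D-V stood at 0.15 (SE 0.060, adjusted p = 0.265) against D+V. Removing GC and length trends left −0.024 and 0.039. Without the choroid-rich libraries they were −0.12 and 0.11.

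Rab3c, whose sequence is set against that of Rab3a above, was at 275, 273 and 305 CPM in Control, at 259, 318, 250.3, 347 and 289.9 in S-V, at 265, 333, 532, 403 and 433 in D+V, and at 363, 376, 287, 279 and 318 in D-V. D+V 2, 3, 4 and 5 lay above all controls and D+V 1 below all of them. The D+V values were 0.47 (SE 0.17, adjusted p = 0.167) against Control and 0.42 (SE 0.15, adjusted p = 0.272) against S-V. Without D+V 1 both were called (0.58, adjusted p = 0.0218, and 0.54, adjusted p = 0.0138), and with the GC and length trends removed they were 0.18 and 0.21, uncalled. The ratio of Rab3a to Rab3c CPM within a library had a median of 2.35 in Control (1.93 to 2.40), 2.10 for S-V (1.61 to 2.28), 1.45 for D+V (1.03 to 2.24) and 1.95 for D-V (1.63 to 2.34). In D+V the lowest ratio was that of D+V 3, which had the most Rab3c, and the highest that of D+V 1, so the groups overlapped. Rab3b (40.5 to 71.8 CPM) had no unadjusted p under 0.05.

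Active zone proteins organise the release site. Bassoon (Bsn) and Piccolo (Pclo) are its giant scaffolds, RIM proteins (Rims1, Rims2) link vesicles to calcium channels, and Munc13 proteins (Unc13a, Unc13b) prime them. All 6 were positive in D+V against Control, with a median log2 fold change of 0.21 and 3 at an unadjusted p under 0.05, where 49.5% of all genes tested were positive and 10.8% were higher at that threshold. Against S-V all 6 were positive in D+V (median 0.23, 4 at that threshold, all genes 8.13% higher), and all 6 were negative in D-V against D+V (median −0.19, 2 at that threshold, all genes 8.54% lower). In S-V against Control 2 of 6 were positive (median −0.036), and in D-V against Control 4 of 6 (median 0.036). These counts share libraries and are a description, and edgeR called 0 of the 6. After removal of the GC and length trends 4 of 6 were positive in D+V against Control (median 0.11) and against S-V (median 0.047), and 3 of 6 were negative in D-V against D+V. Unc13b then stood at −0.15 in D+V against Control and −0.17 against S-V (adjusted p = 0.492), and Unc13a just below 0 in both.

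Pclo was at 214, 213 and 261 CPM in Control, at 204, 245, 216, 206 and 224 in S-V, at 192, 258, 357, 294 and 347 in D+V, and at 255, 246, 210.2, 208 and 259 in D-V. D+V 3, 4 and 5 lay above every other library, and D+V 1 was the lowest of the 18. Its values were 0.33 (SE 0.15, adjusted p = 0.25) in D+V against Control, 0.40 (SE 0.13, adjusted p = 0.237) in D+V against S-V and −0.30 (SE 0.13, adjusted p = 0.317) in D-V against D+V. Bsn was at 441, 450.1 and 472 CPM in Control, at 390.2, 469.6, 384, 383 and 382 in S-V, at 365, 430.3, 641, 499.7 and 654 in D+V, and at 481, 503, 388, 438 and 512 in D-V. D+V 3 and 5 were the 2 highest libraries and D+V 1 the lowest. Bsn was at 0.37 (SE 0.13, adjusted p = 0.272) in D+V against S-V and at 0.19 (SE 0.15, adjusted p = 0.533) against Control. Bsn to Pclo ratios within a library ran from 1.67 to 2.11 over the 18 libraries.

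Rims1 was at 115, 122 and 142 CPM in Control, at 133, 148, 128, 138 and 121 in S-V, at 114, 159, 194, 158 and 189.7 in D+V, and at 158, 151, 114, 119 and 153 in D-V. As with Pclo, D+V 1 was the lowest library, with the other 4 D+V libraries above all controls. The D+V values were 0.36 (SE 0.14, adjusted p = 0.195) against Control and 0.29 (SE 0.12, adjusted p = 0.357) against S-V. Rims2 was at 55.0, 54.7 and 49.6 CPM in Control, at 48.8, 57.3, 54.4, 59.6 and 57.3 in S-V, at 54.2, 58.7, 67.4, 62.7 and 68.2 in D+V, and at 58.7, 62.3, 54.2, 51.9 and 53.4 in D-V. Here too 4 of 5 D+V libraries were above all controls and D+V 1 among them. Rims2 was at 0.23 (SE 0.086, adjusted p = 0.172) in D+V against Control and 0.17 (SE 0.074, adjusted p = 0.364) against S-V. Unc13a (235 to 343 CPM) had no unadjusted p under 0.05 by edgeR, though limma voom called it in D+V against S-V (0.26, adjusted p = 0.026). By edgeR Unc13b (24.0 to 34.8 CPM) was at −0.24 (SE 0.092, adjusted p = 0.262) in D-V against D+V.

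**Figure D4:**
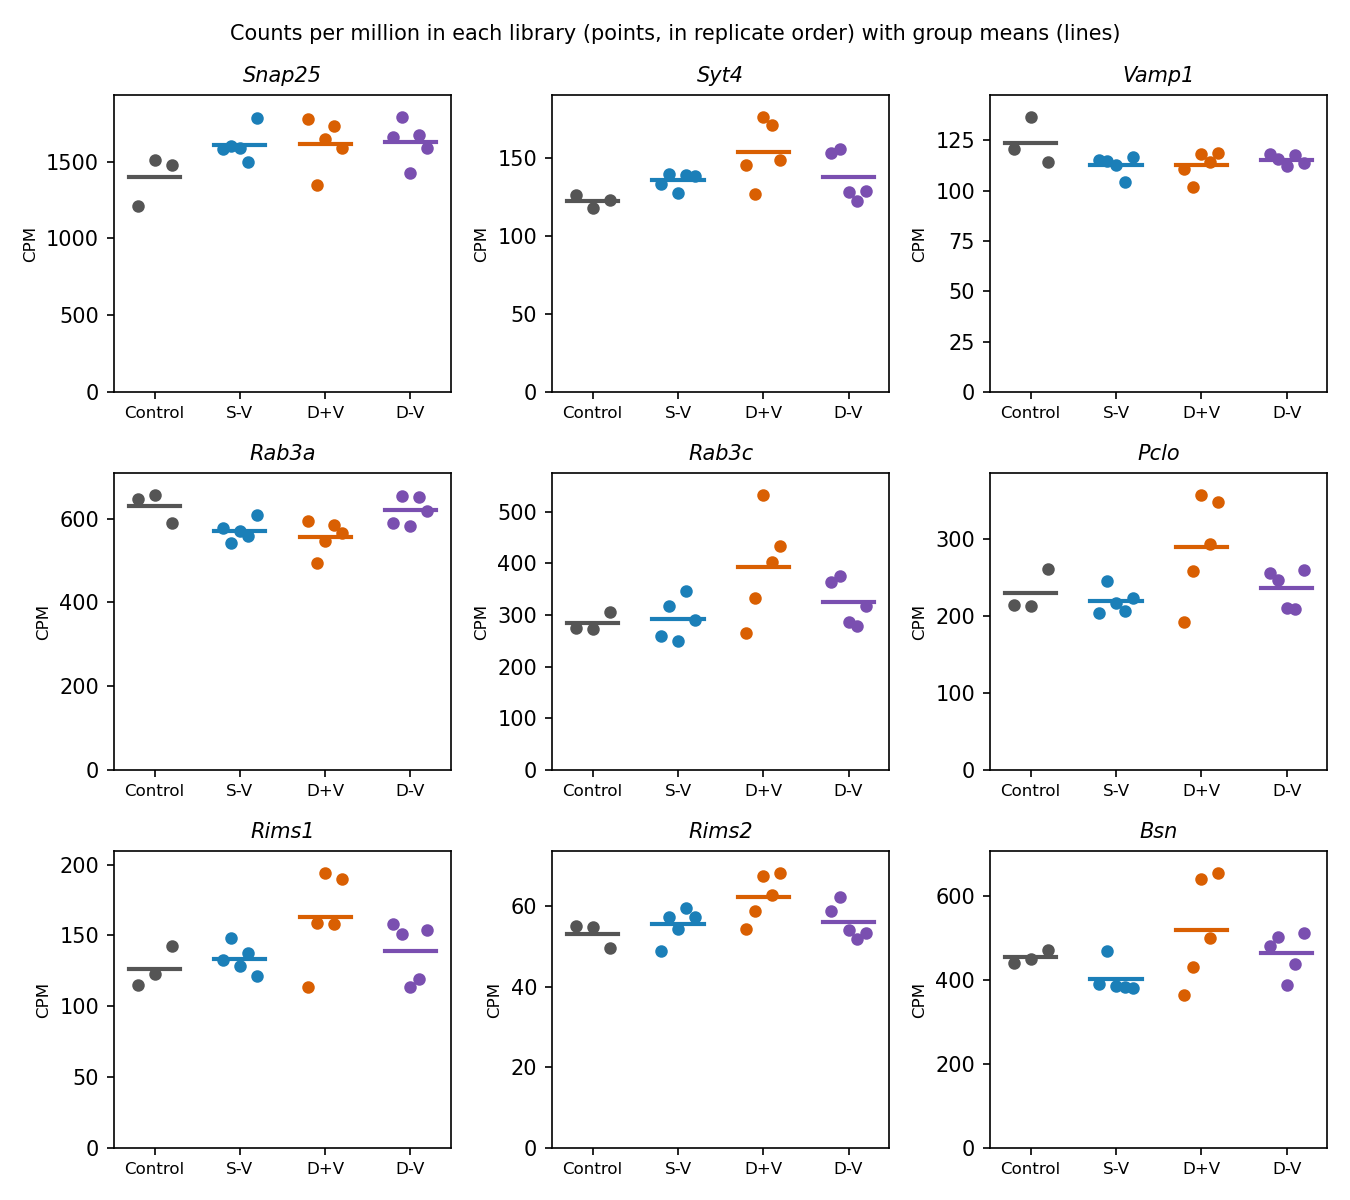
CPM of 9 members in each library (points, in replicate order within a group) with group means (horizontal lines), each panel with its own axis from 0. In D+V the first library lies near or below the controls for Rab3c, Pclo, Rims1, Rims2 and Bsn while libraries 3, 4 and 5 lie above them, and for Syt4 all 5 D+V libraries lie above the 3 controls.

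Many of these values depended on D+V 1. It was the lowest of its group for 10 of the 32 genes and the highest for 9. Without it edgeR called 8.58% of all 14678 genes tested in D+V against Control, 10.1% in D+V against S-V and 8.38% in D-V against D+V, so calls became more frequent in general. Among the members it then called 5 in D+V against Control, all higher (Syt4, Rab3c, Pclo, Rims1 and Rims2), 6 higher in D+V against S-V (Syn3, Rab3c, Bsn, Pclo, Rims1 and Unc13a) and 4 lower in D-V against D+V (Syn3, Pclo, Rims1 and Unc13b). Across the 32 genes, the deviation of a library from the 18-library mean ranked with transcript length at Spearman rho = −0.62 in D+V 1 and at 0.44, 0.65, 0.61 and 0.56 in D+V 2 to 5. Over 14743 genes with a transcript the same values were −0.43 and 0.20, 0.43, 0.44 and 0.42. Among all 18 libraries the 32 genes gave −0.73 in D-V 4, the lowest, and 0.65 in D+V 3, the highest. Relative to shorter members, longer ones thus tended to be low in D+V 1 and high in the other D+V libraries, as longer genes did in general. These ranks compare genes within a library and do not give the level of a gene, since D+V 2 was the lowest of its group for 20 of the 32 members.

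The glutamate transporters load vesicles. Slc17a7 was at 1327, 1452 and 1494 CPM in Control, at 1321, 1241, 1364, 1119 and 1317 in S-V, at 1197, 1199.5, 1501, 1401 and 1561 in D+V, and at 1384, 1548, 1241, 1494 and 1583 in D-V. S-V 4 was the lowest library and the groups overlapped. D-V against S-V was at 0.19 (SE 0.085, adjusted p = 0.782), with 4 of 5 D-V libraries above all of S-V. That value was 0.037 with the thalamus and habenula score as a covariate and 0.11 with the GC and length trends removed. Slc17a8 (VGLUT3), found in a few interneurons and in incoming fibres, had 1.98 to 6.62 CPM, the widest within-group spread of the 32 (SD 0.36 on the log2 scale), and no unadjusted p under 0.05.

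In D-V against S-V, the comparison of rotation in both directions with rotation in 1, both without vision, 27 of the 32 genes were positive with a median of 0.073, where all genes tested had a median of −0.00010. The 3 members at an unadjusted p under 0.05 (Syn1, Syngr1 and Slc17a7) were all positive, and 3.37% of all genes tested were positive at that threshold. In D-V against D+V, which by their labels differ in vision alone, 20 were positive (median 0.024). With the choroid-rich libraries left out D-V against S-V had a median of 0.14 with 28 positive, and D-V against D+V a median of 0.0081 with 16 positive, with 0 called in either. After removal of the GC and length trends the medians were 0.060 with 25 positive and 0.028 with 22 positive, with 0 called in either. With the thalamus and habenula score as a covariate both turned, to −0.010 with 15 positive and to −0.034 with 10 positive, again with 0 called. That score did not overlap between D-V and S-V, as given above. The D-V against D+V median was also negative without D+V 2 (−0.031, 15 positive) and without D-V 2 (−0.00043, 16 positive).

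Fold changes of the members ordered with the base composition of their transcripts. The 32 transcripts had a median GC content of 52.0% (40.6 to 59.8) and a median length of 4093 bases (1556 to 20084), where all genes tested had medians of 50.3% and 3205. In S-V against Control the log2 fold change ranked with GC content at rho = −0.80 over the 32 genes and −0.43 over 14743 genes. The pairs were −0.69 and −0.54 in D+V and −0.37 and −0.25 in D-V, each against Control, and 0.59 and 0.43 in D-V against D+V. These are descriptions across genes, which are not independent replicates, and the points share libraries.

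Of the 14 members below the 50.3% median, 11 were positive for S-V against Control, 13 for D+V and 11 for D-V. Of the 18 above it, 2, 6 and 10 were. Among all genes below that median 70.4%, 72.0% and 64.3% were positive, and among those above it 30.9%, 27.0% and 38.4%. In S-V and D+V the members had the division seen in all genes. In D-V against Control 10 of the 18 members above it were positive, with a median of 0.015 where such genes in general had −0.033. In D-V against S-V, 11 of 14 below it and 16 of 18 above it were positive, where 36.7% and 63.2% of all genes were. In D+V against Control the low-GC members had a median of 0.24 where low-GC genes in general had 0.11.

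After removal of the GC and length trends from each library, the median absolute log2 fold change of the 32 genes was 0.033 for S-V against Control (0.090 before) and 0.10 for D+V (0.15 before), and for D-V it was 0.096 (0.090 before). Members at an unadjusted p under 0.05 numbered 0 in S-V and 2 in D+V, where 8.70% and 8.61% of all genes tested were under it, 0 in D-V (6.75%) and 4 in D+V against S-V (9.06%). The 2 in D+V against Control were Rims1 at 0.23 (adjusted p = 0.501) and Rims2 at 0.18 (adjusted p = 0.485). Pclo was then at 0.073 and Bsn at 0.15 in D+V against Control, and at 0.054 and 0.040 against S-V, so of the giant transcripts of 20084 and 15938 bases, Pclo kept little of either value and Bsn little of that against S-V. In D-V against D+V the values of Pclo and Unc13b changed sign, to 0.038 and 0.030. Syn3 kept its value there and in D+V against S-V (−0.41, adjusted p = 0.465, and 0.35, adjusted p = 0.513).

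**Figure D5:**
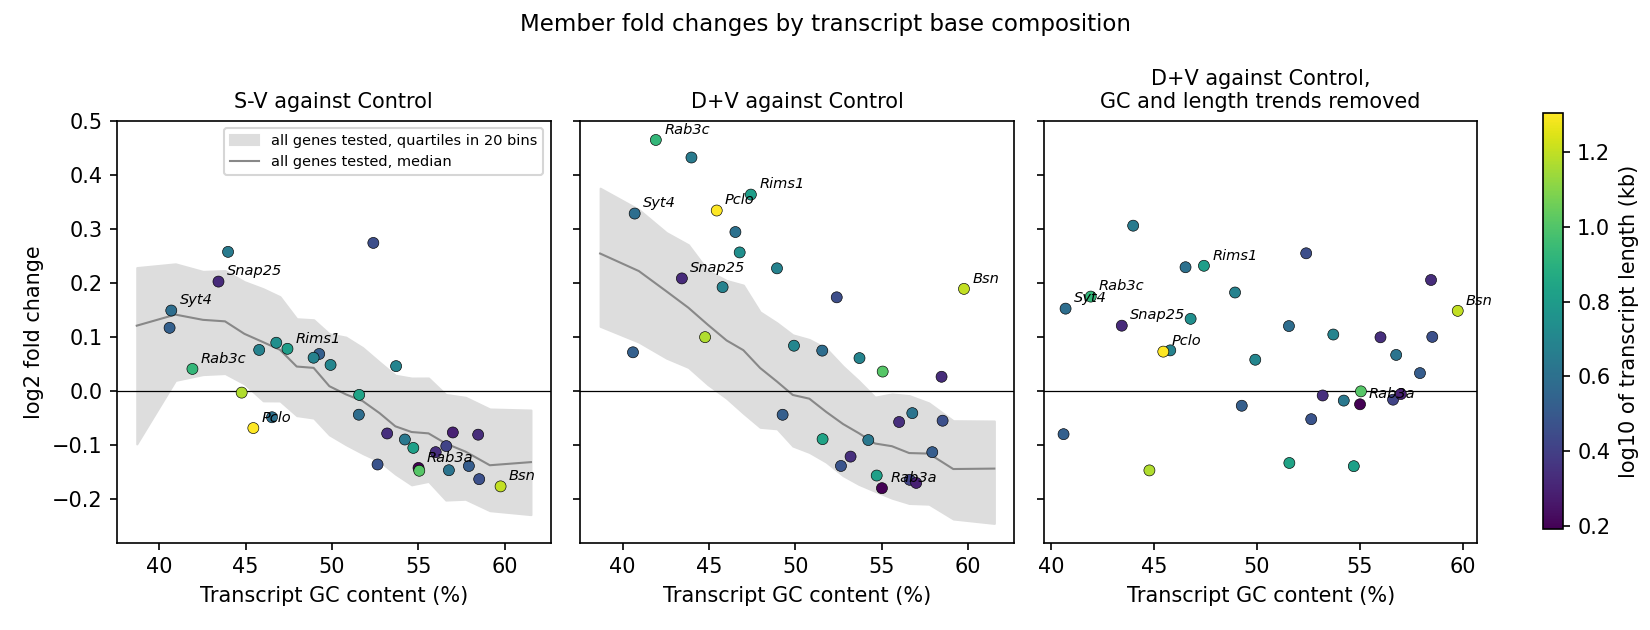
Log2 fold change of the 32 genes (vertical axis, points coloured by log10 transcript length in kilobases) against transcript GC content in percent (horizontal axis) for S-V and then D+V, each against Control, and for D+V with the GC and length trends removed. In the first 2 panels the grey line and band are the median and quartiles of all genes tested in 20 bins of GC content. Members with less G and C tend to lie higher, and in D+V several, such as Rab3c, Pclo and Rims1, lie above the band.

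Within groups the 32 genes had a median SD of 0.14 on the log2 scale, where 7653 genes at 20 CPM or more had 0.13 and all genes tested 0.17. The widest spread among members above that level was that of Rab3c (0.25), Pclo (0.23), Bsn (0.23), Sv2b and Rims1 (0.22 each).

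Of 86 other genes of vesicle traffic and release that were listed, 81 were tested, and edgeR called 0 in either direction in each of the 7 comparisons. At an unadjusted p under 0.05 there were 5 higher and 12 lower for S-V against Control, 14 higher and 8 lower for D+V, and 2 higher and 4 lower for D-V. The shares of all genes tested were 7.41% and 5.95%, 10.8% and 6.86%, and 3.37% and 2.65%. In D+V against S-V there were 16 higher and 3 lower (all genes 8.13% and 4.69%), and in D-V against D+V 2 higher and 11 lower (5.03% and 8.54%). DESeq2 called 3 higher in D+V against Control, 1 lower in D-V against D+V, 1 lower in the rotated mean against Control and 0 elsewhere, with 5.14%, 1.88% and 1.75% of all genes called. Limma voom called 15 higher and 1 lower in D+V against Control, 5 lower in D-V against D+V, 20 higher and 4 lower in D+V against S-V, 1 in each direction in the rotated mean and 0 elsewhere, with 12.7%, 5.55%, 13.2% and 2.58% of all genes called.

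In D+V against Control the smallest p of these belonged to Rab27b, a GTPase of secretory vesicles, at a log2 fold change of 0.46 (SE 0.12, adjusted p = 0.0634), Atp6v1a, a subunit of the pump that acidifies vesicles, at 0.27 (SE 0.080, adjusted p = 0.0884), and Itsn2, an endocytic scaffold, at 0.39 (SE 0.12, adjusted p = 0.109). In the other direction were Sv2c, an Sv2a relative, at −0.33 (SE 0.11, adjusted p = 0.123), and Syt6 at −0.41 (SE 0.14, adjusted p = 0.131). Slc18a3, the vesicular acetylcholine transporter, was also among the smallest (adjusted p = 0.0826), at a mean of 0.272 CPM over the 18 libraries, too low for a fold.

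Sv2c stood at −0.34, −0.33 and −0.36 in S-V, D+V and D-V against Control. Slc17a6 (VGLUT2), the transporter of thalamic and other subcortical glutamate neurons and also on the thalamus and habenula list, was at −0.73 (SE 0.24, adjusted p = 0.71) in D-V against Control and −0.74 (SE 0.21, adjusted p = 0.136) in D-V against D+V. The 14 related active zone genes were all positive in D+V against S-V (median 0.15), where 48.9% of all genes tested were positive. In D-V against D+V 12 of 14 were negative (median −0.088), where 52.3% of all genes were positive. These were the directions of the 6 members before removal of the GC and length trends. Both comparisons share the D+V libraries. Over 14743 genes their fold changes ranked with transcript length at rho = 0.48 and −0.39. Values of the related genes with these trends removed are not given.

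Promoters were examined for features that the choice of genes did not use. A RefSeq entry (GRCm38.p6) of the 250 bases before and 50 after the start was at hand for 25 of the 32 genes. Their median GC content was 62.3% with 18 CpG dinucleotides, where 27025 genes had medians of 52.7% and 7. The left portion of the element bound by REST, the repressor of neuronal genes outside neurons, searched as TTCAGCACC on both strands, was found in Syn1 and Unc13a and in 0.433% of all promoters. The lines below give 30 bases around each match, shown because these are the only members with it, with the match in capitals. A match is a description and not a site.
Syn1, chrX:20921122-20921151, minus strand: aTTCAGCACCgcggtcagagccttcgcctc
Unc13a, chr8:71671726-71671755, plus strand: cTTCAGCACCgggggcgcggacagcgcctg
The Syn1 match starts 232 bases before the gene's start, on the strand of the gene. The Unc13a match lies 22 bases after the start, on the strand opposite to the gene. The cyclic AMP response element TGACGTCA was found in Syn1 (2.03% of all promoters), and TATAAA in Sv2b and Rab3b (15.7%).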

How the data were processed

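The authors deposited estimated counts per gene, one column for each of the 18 libraries. HISAT2, StringTie 1.3.1, Bowtie2 2.2.8 and DESeq2 are named, without role or order, per the submitters' processing notes. The sources used here do not give genome build, annotation or use of strand. Overlapping and antisense genes therefore cannot be told apart. Counts were rounded and fitted with edgeR 4.0.16 (R 4.3.3): TMM scaling, the filterByExpr filter (14763 of 22063 genes kept), a robust quasi-likelihood test over all 18 libraries, and Benjamini-Hochberg adjustment over all genes tested, called at 0.05. Every p in the report is from that test unless another tool is named. DESeq2 1.42.0 and limma 3.58.1 (voom) were alternatives, as were a replicate block, tissue scores as covariates, and removal of each library's GC and length trends (splines of 5 degrees of freedom). Transcripts were taken from GENCODE vM21, the longest protein-coding one of each gene, or the longest of any kind where none is coding. The edgeR fit of D+V against Control was checked on simulated counts with known changes, drawn gene by gene without GC, length or tissue trends. The other fits were not checked in this way. The members and lists were chosen with earlier results of these data known. All members are named, with values in every library for the most abundant of each role and for those at an unadjusted p under 0.05 in 2 or more comparisons with Control. Others whose library values are given, such as Syn1, Syn3, Syngr1, Rab3c and the active zone genes, were chosen after their values were seen.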

Additional observations from a re-analysis of the deposited data

Results flagged for a closer look

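In 96 groups of 5 libraries (32 genes in 3 rotated groups), 6 had an end library separated from the next by more than Dixon's 95% critical value of the group's range. Chance alone flags about 1 group in 20. In D+V 2, the library second in choroid plexus RNA, Syn1 was at 627 CPM, with the next at 734. In D-V 3, the library with the most choroid plexus RNA, Syngr1 was at 408 CPM, with the next at 460.4. Syn3 was low in D+V 1, at 4.19 CPM with the next at 6.67, and in S-V 2, at 3.92 CPM with the next at 5.07. Syngr1 was low in S-V 1, at 384 CPM with the next at 406. Bsn was high in S-V 2, at 470 CPM with the next at 390.2.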

How the results depend on the processing

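The count of members called in D+V against Control was 1 with DESeq2, 9 with limma voom and 1 with a choroid plexus covariate. DESeq2 called 5.14% of all genes there and limma voom 12.7%, and the share for the covariate fit is not given. Limma voom called 2 members in D-V against D+V and 7 in D+V against S-V. Leaving out 1 library at a time gave 0 to 5 members in D+V against Control, 0 to 4 in D-V against D+V and 0 to 6 in D+V against S-V, the highest of each without D+V 1. With the thalamus and habenula score as a covariate the median log2 fold change was −0.083 in D+V, −0.14 in D-V and −0.12 in the rotated mean, each against Control. Every control lay above every rotated library in that score, so this fit can hardly separate it from the group. Removal of GC and length trends changed the sign in D-V against D+V for Unc13b (0.030) and Pclo (0.038), and together with the replicate block they were at 0.029 and 0.041. Medians also changed sign without Control 1 in the rotated mean against Control (−0.019), and in 2 other comparisons given beside their values. The cause was not tested. Under the alternatives, 207 of 216 counts stayed at the reported 0. Of the medians, 213 of 216 moved by less than 0.093, the within-group SD of the members' library medians. Every reported median was closer to 0 than that margin, so a change of sign could pass within it, and this tally is no measure of stability. Of the values of single members, 831 of 865 kept direction and side of the threshold. Scaling moved the median of all genes by at most 0.032 (log2).

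Replicate numbers are shared between groups without a stated meaning. Same-numbered libraries correlated at a median of −0.081 (−0.57 to 0.38, 24 pairs), and 2 of 18 libraries were closest to their own number. With the replicate block, 0 of 7 comparisons had a member called, and D+V against Control had a median of 0.050 with 6 members at an unadjusted p under 0.05. That fit called 4 genes in all in D+V against Control. Its share of all genes at an unadjusted p under 0.05 is not given, so the 6 cannot be read as many or few. For the rotated mean, a fit on only the groups compared is the reported fit. Depth limits the least abundant members: Slc17a8, Cplx3 and Syn3 had means under 10 CPM.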
